A study of Mus musculus with 6 samples.

Results

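KLA (Kdo2-lipid A, the lipid A core of lipopolysaccharide) was given to macrophages that carried a control siRNA, and the response was read across all genes as the KLA library against its vehicle library. The members were the table's columns named siCtl-Veh and siCtl-KLA, 2 of 6 libraries. Genes entered with 1 transcript per symbol (the one with the highest mean over the 6 libraries) and a mean of at least 10 reads, which left 7995 of 23282 symbols. Under this rule 553 genes were higher and 192 were lower after KLA by size.

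All 6 libraries came from peritoneal macrophages elicited with thioglycollate in female C57BL/6 mice. The cells received siRNA against Smyd5, siRNA against Phf2 or control siRNA for 48 h and then vehicle or KLA at 100 ng/ml for 4 h, with 1 library for each combination. The series asks how methylation and demethylation of histone H4 lysine 20 bear on inflammatory genes, and the control siRNA pair gives the response from which the knockdowns depart. No label states the mice's age, how many were pooled per library or the sequence of the control siRNA, and every cell, vehicle cells included, had been through siRNA treatment. The labels name the agent as LPS and, in brackets, as Kdo2-lipid A.

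The siCtl libraries held 1359285 (vehicle) and 1429521 (KLA) reads, against 921921 and 919325 for siSmyd5. The siPhf2 libraries held 577057 and 420142 reads, of which 66.65% and 71.64% belonged to the ribosomal precursor Rn45s, against 0.62% to 1.2% in the other 4. The siCtl and siPhf2 columns gave whole reads only with the tag total printed in the other's header (100% of values, against 2.43% or less with their own), so either the names or the totals of these columns are crossed. The 2 targeted genes were as follows, vehicle first. Smyd5 had 32.6 and 20.4 reads per 1000000 reads other than Rn45s in the siCtl libraries and 9.88 and 21.9 in the siSmyd5 libraries, and 15.6 and 0 in those named siPhf2. Phf2 had 83.7 and 84.6 in the siCtl libraries, 57.1 and 37.3 in the siSmyd5 libraries and 151 and 67.1 in those named siPhf2. The printed names were kept here, and values under the exchange are given for the counts, for the lists it moves most and for some genes. Reads were scaled by TMM over the 6 libraries. Log2 ratios carry 2 added reads, while fold values are ratios of scaled reads with an exact 95% interval for counting error. A gene was called higher or lower when its log2 ratio was at least 1 in size and that interval lay on 1 side of equality. Gapdh and Ppia, used by every cell, had at most 1 read in each library, so a gene at 0 is listed at 0 and need not be absent. With 1 library per group there was no test of the conditions, and no p-value is given. The siSmyd5 pair shares no library with the siCtl pair and is quoted beside it as a second pair, not as a replicate.

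Lipid A is recognised by TLR4 with its partner MD-2 (Ly96) and the co-receptor CD14. An adaptor branch through MyD88 releases NF-kB from its inhibitors and turns on MAP kinases and AP-1, and a branch through TRIF (Ticam1) turns on IRF3 and interferon beta. Interferon then acts back on the cells through its own receptor, so genes with NF-kB sites and genes with interferon response elements both belong to the macrophage's response. Many of the first genes induced encode inhibitors that later end it.

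Of the 7995 genes, 6.92% were called higher and 2.4% lower, and the median log2 ratio of all genes was 0.02. Counts of each gene list below are to be read beside these shares. Counts under the exchange of names are to be read beside 8.48% higher and 6.63% lower. In bulk libraries, less RNA per cell and fewer cells of a kind cannot be told apart. The rises were larger than the falls. The median log2 ratio was 1.65 among genes called higher and -1.23 among genes called lower, 210 rises but 15 falls had a log2 ratio of at least 2 in size, and 46 rises had one of at least 4. Together the genes called higher took 3.69% of the vehicle library's reads and 13.55% of the KLA library's, and the genes called lower took 1.69% and 0.563%. The division between rises and falls depends on the scaling. With scaling to the library total the median of all genes moved to -0.16, 441 genes were called higher and 342 lower, and higher calls were 56.3% of all calls in place of 74.2%.

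**Figure D1:**
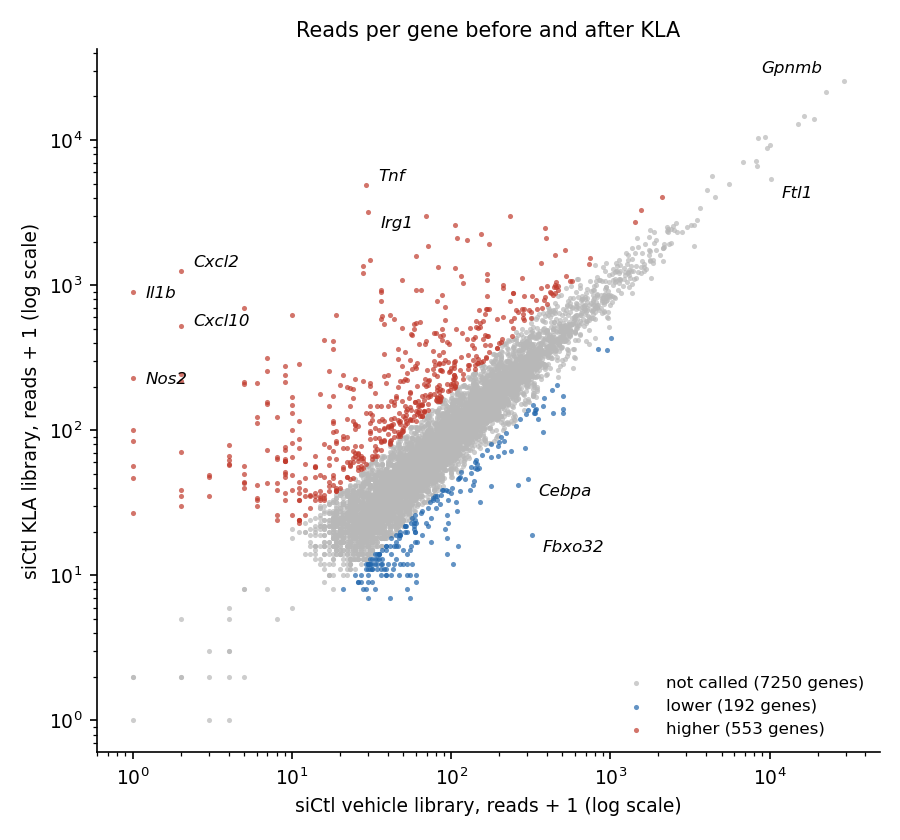
Reads + 1 of each of 7995 genes in the siCtl vehicle library (x axis) and the siCtl KLA library (y axis), both on log scales. Red points are the 553 genes called higher, blue points the 192 called lower and grey points those not called. Il1b and Nos2 lie at 0 vehicle reads, and Gpnmb, the gene with the most reads, lies among those not called.

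The 6 promoters below are a choice from genes among the 15 largest rises whose windows hold the NF-kB motif, the interferon response element, or both. Nlrp3 (NF-kB motif) and Edn1 (interferon element) met the same rule and are not shown. The sequences are RefSeq windows of 300 bases, 250 before and 50 after the start of the transcript, in gene orientation on GRCm38.p6, a later build than the mm9 of the table. Capitals mark the motifs on either strand: the NF-kB consensus (searched by that name) and the interferon element, GAAA and GAAA with 2 bases between, or TTTC likewise on the other strand. Positions count from 1 at the start, with negative numbers before it. Cxcl2 (chr5:90903649-90903948, plus strand) and Tlr2 (chr3:83841559-83841858, minus strand) held the NF-kB motif only, Cxcl2 at -97 and Tlr2 at -173 (overlapping matches) and -8. Ifit1 (chr19:34640639-34640938, plus) held the interferon element at -104 and -85, and Ifi205 (chr1:174031706-174032005, minus) held it at -134 and 24. Cxcl10 (chr5:92348840-92349139, minus) held both, NF-kB at -159 and -103 and interferon at -213. Gbp5 (chr3:142496684-142496983, plus) held NF-kB at -77 and interferon at -165.
Cxcl2: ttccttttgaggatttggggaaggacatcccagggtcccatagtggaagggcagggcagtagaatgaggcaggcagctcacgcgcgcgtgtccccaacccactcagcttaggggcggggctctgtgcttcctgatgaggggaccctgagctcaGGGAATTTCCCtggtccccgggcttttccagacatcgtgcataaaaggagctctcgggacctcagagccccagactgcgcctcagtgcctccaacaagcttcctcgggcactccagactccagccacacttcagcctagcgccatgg
Tlr2: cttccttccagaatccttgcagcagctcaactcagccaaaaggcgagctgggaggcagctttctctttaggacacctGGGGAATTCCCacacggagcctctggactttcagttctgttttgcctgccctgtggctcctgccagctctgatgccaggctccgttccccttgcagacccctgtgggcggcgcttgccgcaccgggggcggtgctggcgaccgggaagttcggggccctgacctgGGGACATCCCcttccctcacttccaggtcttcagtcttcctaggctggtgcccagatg
Ifit1: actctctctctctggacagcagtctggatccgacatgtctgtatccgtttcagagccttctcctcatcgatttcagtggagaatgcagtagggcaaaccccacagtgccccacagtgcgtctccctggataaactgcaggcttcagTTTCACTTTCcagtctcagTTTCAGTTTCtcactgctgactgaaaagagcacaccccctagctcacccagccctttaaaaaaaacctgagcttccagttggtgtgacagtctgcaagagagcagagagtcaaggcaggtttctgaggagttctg
Ifi205: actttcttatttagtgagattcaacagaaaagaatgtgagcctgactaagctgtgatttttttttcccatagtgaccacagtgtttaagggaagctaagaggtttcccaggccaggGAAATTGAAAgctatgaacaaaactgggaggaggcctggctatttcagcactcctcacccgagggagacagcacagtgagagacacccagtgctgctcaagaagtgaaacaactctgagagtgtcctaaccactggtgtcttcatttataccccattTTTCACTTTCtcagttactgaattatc
Cxcl10: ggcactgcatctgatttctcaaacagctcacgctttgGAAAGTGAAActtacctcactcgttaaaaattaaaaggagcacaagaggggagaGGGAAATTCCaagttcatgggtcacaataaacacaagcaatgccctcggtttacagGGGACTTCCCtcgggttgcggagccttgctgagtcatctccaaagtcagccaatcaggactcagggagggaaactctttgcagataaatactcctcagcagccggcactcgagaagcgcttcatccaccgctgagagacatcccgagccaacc
Gbp5: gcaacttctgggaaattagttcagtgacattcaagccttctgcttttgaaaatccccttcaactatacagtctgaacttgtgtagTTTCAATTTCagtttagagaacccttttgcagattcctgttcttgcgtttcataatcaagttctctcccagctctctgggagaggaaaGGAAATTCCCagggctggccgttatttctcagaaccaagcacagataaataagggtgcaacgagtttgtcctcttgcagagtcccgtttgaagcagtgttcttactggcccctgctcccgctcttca
A match is a run of letters in a window and not a measured site.

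Cytokines were among the strongest rises. Of 23 cytokine and growth factor genes tested, 15 were called higher and none lower, against 6.92% of all genes called higher. Their median log2 ratio was 2.56 (3.37 in the siSmyd5 pair). The list holds 38 genes, and the minimum mean counts KLA reads, so a gene with almost no vehicle reads entered through its KLA reads. The share called and the median therefore depend on that minimum. With no minimum 24 genes of the list were called higher and the median was 2.16. Tnf, which encodes the early cytokine TNF, had 28 reads in the vehicle library and 4929 in the KLA library, a 190-fold difference (95% interval 132 to 287). Il1b, the precursor of IL-1 beta, had 0 and 901 reads. That is 325-fold higher when the vehicle library is set to a floor of 3 reads, and the exact interval starts at 264. The other interleukin-1, Il1a, was already present at 104 reads and reached 2617, a 27.2-fold difference (22.4 to 33.4). Il6 had 9 and 168 reads (20.2-fold, 10.4 to 44.9). Genes of the IL-12 family, which direct T helper cells, went from at most 1 read to countable levels: Il12b from 1 to 38, Il27 from 0 to 56 (20.2-fold higher against the same floor, exact lower limit 15.9) and Il23a from 0 to 83 (29.9-fold higher, exact lower limit 23.8). Tnfsf15 (0 and 100 reads) and Tnfsf9 (15 and 415 reads), ligands of the TNF superfamily that act on lymphocytes, also rose. Csf2, the growth factor GM-CSF, had 0 and 26 reads.

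The 8 cytokine genes not called lay on both sides of equality. Il1rn, the IL-1 receptor antagonist, had 465 and 841 reads (1.96-fold, 1.74 to 2.2), and Csf1 had 182 and 336 (2-fold, 1.66 to 2.4), both just inside the limit of the call. Il18 had 18 and 15 reads and Vegfa 75 and 47 (0.678, 0.46 to 0.989). Il10, Il12a and Ifnb1 stayed under the minimum mean of 10 reads over the 6 libraries and were named after their values were seen. Il10, the main anti-inflammatory interleukin, had 1 and 29 reads, Il12a had 0 and 29, and Ifnb1, interferon beta, had 0 and 14.

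Among chemokines, which draw leukocytes to a site, 11 of 16 tested were called higher and none lower, beside 6.92% and 2.4% of all genes. Their median log2 ratio was 2.36 (2.49 in the siSmyd5 pair). That median depends on which genes enter, being 1.17 with no minimum on the reads and 4.29 with a minimum mean of 50. Cxcl2, a neutrophil attractant, had 1 read in vehicle and 1246 in KLA, the largest log2 ratio of all genes (8.18). With a single vehicle read the fold is loosely bounded, from 241 to 53273. Its neighbours Cxcl1 (6 and 315 reads) and Cxcl3 (1 and 34) also rose. Cxcl10, an attractant of activated T cells, had 1 and 526 reads. The monocyte attractant Ccl2 had 107 and 2113 reads (21.4-fold, 17.6 to 26.2), and Ccl7 beside it had 17 and 362. Ccl3 and Ccl4, which draw monocytes and T cells, reached 1587 reads from 59 and 1205 reads from 27. Ccl5 only just met the call (240 and 448 reads, 2.02-fold, 1.72 to 2.37), and in the siSmyd5 pair it did not (240 and 331 reads). Not called were Cxcl5, Pf4, Ccl8, Cxcl12 and Ccl6, the last with 241 and 201 reads.

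The order of abundance changed for induced genes. The levels here are reads per kilobase of transcript per 1000000 of the library's TMM effective size. That size is larger than the library's read total. These levels are therefore lower than levels per 1000000 reads and are not comparable with them. On this ranking Tnf moved from place 5401 in the vehicle library (level 7.12) to place 13 in the KLA library (level 1356). Ccl2 moved from 663 to 16, Ccl3 from 1371 to 19, Ccl4 from 2796 to 22 and Il1a from 2124 to 33. Irg1 moved from 6504 to 35, Isg15 from 1683 to 29, Ccrl2 from 819 to 30 and Slfn2 from 306 to 27. In vehicle the leading genes were the ferritin chains Fth1 and Ftl1, the lysosomal protease Ctsd and the glycoprotein Gpnmb. Their levels on the same scale were 10761, 4341, 4014 and 3187. After KLA they had 10987, 2487, 3209 and 2987, and Ftl1 moved from place 2 to place 4. By reads, 9 of the 10 leading genes and 74 of the 100 leading genes were the same in both libraries.

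**Figure D2:**
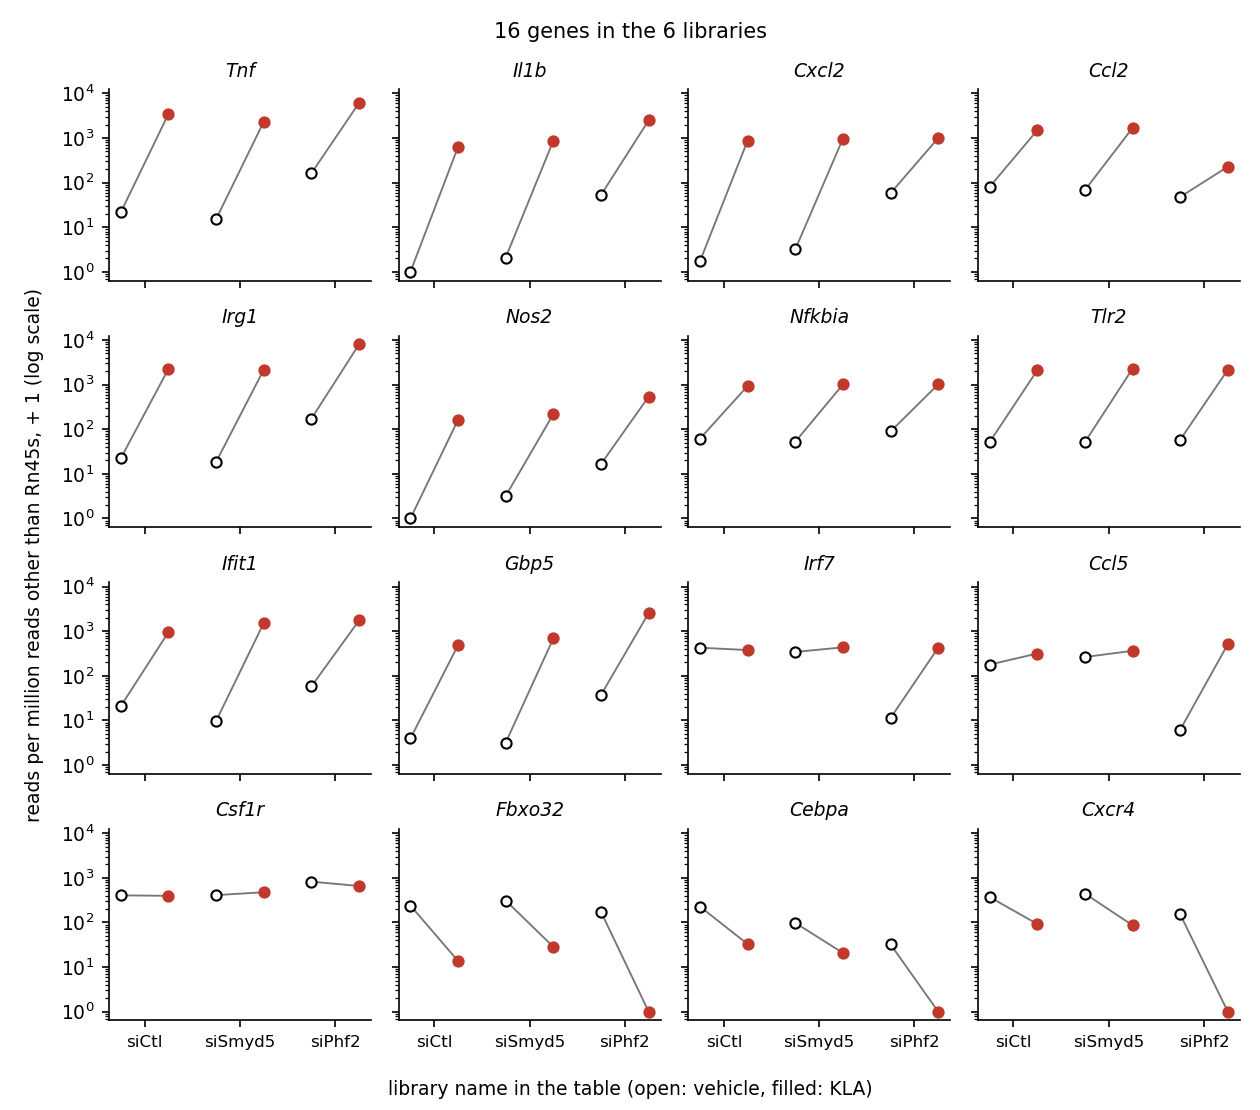
Reads per 1000000 reads other than Rn45s, + 1, on a log scale for 16 genes, 1 panel each, with the library names of the table on the x axis; open circles are vehicle, filled circles KLA, and a line joins the pair. Tnf goes from 20.7 to 3470 per 1000000 in the siCtl pair, Irf7 from 426 to 378 there but from 10.4 to 428 in the siPhf2 pair, and Fbxo32, Cebpa and Cxcr4 are lower in the KLA library of each pair.

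Receptors moved less than ligands. Of 28 cytokine and chemokine receptor genes tested, 7 were called higher and 1 lower, beside 6.92% and 2.4% of all genes. Their median log2 ratio was 0.15. The atypical chemokine receptor gene Ccrl2 had 234 and 2997 reads (13.9-fold, 12.1 to 15.9), the costimulatory receptor gene Cd40 had 24 and 224, and Tnfrsf1b, the second TNF receptor, had 393 and 2106 (5.8-fold, 5.2 to 6.47). Its partner Tnfrsf1a was not called (log2 ratio -0.15). Cxcr4, the receptor of Cxcl12, was the member called lower, with 500 and 130 reads (0.281, 0.23 to 0.342), and 403 and 78 in the siSmyd5 pair. Csf1r, the receptor for macrophage colony-stimulating factor, had 546 and 560 reads (1.11, 0.984 to 1.25).

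Pattern receptors and their adaptors divided in the same way (median log2 ratio 0.44). Of 28 tested genes 10 were called higher and none lower, beside 6.92% and 2.4% of all genes. Tlr2, the receptor for bacterial lipoproteins, had 68 and 2979 reads (47.4-fold, 37.3 to 61.2). Nod2, a cytosolic sensor of peptidoglycan, had 6 and 156. The receptor of KLA itself did not rise. Tlr4 had 307 and 156 reads (0.55, 0.45 to 0.669), short of a call, and 172 and 95 in the siSmyd5 pair. Its co-receptor Cd14 rose 3.92-fold (244 and 885 reads, 3.4 to 4.54), and Ly96 had 73 and 77 reads. The adaptor genes Myd88 (85 and 155) and Ticam1 (215 and 140) were not called. Irak3, an inhibitory kinase of the pathway, rose 3.04-fold (2.13 to 4.42), and the endosomal receptor genes Tlr3 and Tlr7 rose 3.53-fold (2.33 to 5.51) and 2.89-fold (2.4 to 3.49).

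Of NF-kB's own subunits and inhibitors 14 of 23 tested genes were called higher, none lower and 9 not called (median log2 ratio 2.06, and 2.05 in the siSmyd5 pair). The inhibitors led. Nfkbia, which encodes IkB alpha, had 82 and 1328 reads (17.5-fold, 14 to 22.2), Nfkbie had 8 and 213 (28.8-fold, 14.4 to 67.6), and the deubiquitinase gene Tnfaip3 (A20) had 152 and 2260 (16.1-fold, 13.6 to 19.1). Nfkbiz and Nfkbid, nuclear IkB proteins that modify transcription, had 35 and 894 reads and 3 and 78 reads. The subunit genes Nfkb1 (7.71-fold, 6.55 to 9.11), Nfkb2 (8.5-fold, 6.82 to 10.7), Rel (7.48-fold, 5.55 to 10.3) and Relb (7.25-fold, 4.92 to 11) rose by similar amounts, their intervals overlapping. Rela, which encodes the p65 subunit, was not called (230 and 411 reads, 1.93-fold, 1.64 to 2.28). Chuk, Ikbkb and Ikbkg, genes of the kinase complex that acts by modifying proteins already present, were not called, at 1.58, 1.21 and 0.841 times vehicle.

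Other feedback genes were mixed, with 9 of 22 called higher and 1 lower, beside 6.92% and 2.4% of all genes. Their median log2 ratio was 0.61 (1.06 in the siSmyd5 pair). Socs3, an inhibitor of cytokine receptor signalling, had 10 and 285 reads (30.8-fold, 16.5 to 65), Cish had 3 and 57, and Socs1 had 11 and 38. Zc3h12a, whose product Regnase-1 degrades cytokine mRNAs, rose 8.79-fold (56 and 455 reads, 6.65 to 11.8), and Zfp36, which encodes the decay factor tristetraprolin, rose 2.15-fold (1.67 to 2.79). The MAP kinase phosphatase genes did not move as one. Dusp4 rose from 85 to 259 reads and Dusp10 fell from 144 to 58 (0.436, 0.315 to 0.595), while Dusp1 had 217 and 112 reads and was not called.

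Interferon-stimulated effectors were the largest responding list. Of 57 tested, 48 were called higher and none lower, and all 57 log2 ratios were above 0 (0.2 to 6.62, median 2.3). In the siSmyd5 pair 55 were called higher, with a median of 2.84. Gbp5, a guanylate-binding protein gene, had 4 and 691 reads (187-fold, 72.6 to 688), and Ifi205 had 9 and 618 (74.3-fold, 38.9 to 163). Ifit1, which binds foreign RNA ends, had 27 and 1360 reads (54.5-fold, 37.3 to 83), and Rsad2, the antiviral enzyme viperin, had 71 and 1861 (28.4-fold, 22.4 to 36.5). Isg15, a ubiquitin-like modifier, had 48 and 1079, and Mx1, an antiviral GTPase, 40 and 623. The RNA sensor gene Ifih1 had 104 and 1312 reads (13.6-fold, 11.2 to 16.8). Near-identical copies in the Ifit, Gbp, Slfn, Oas and Mx families could exchange reads, and no label or header says how reads with several matches were counted.

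The 9 interferon genes not called differed between the library names. Bst2 (tetherin) had 220 and 234 reads in the siCtl pair and 148 and 181 in the siSmyd5 pair, but 4 and 26 in the siPhf2 pair. Oas3 had 387 and 478 reads, and 4 and 51 under the siPhf2 name. All 9 were called higher when the siCtl and siPhf2 names were exchanged. The list's median log2 ratio was then 4.45 with 56 of 57 called higher, beside 8.48% of all genes. The interferon-linked factor gene Irf7 behaved likewise (576 and 536 reads in the siCtl pair, 2 and 51 in the siPhf2 pair), as did Ccl5 (1 and 61). Irf7 stood at 426, 343 and 10.4 reads per 1000000 reads other than Rn45s in the siCtl, siSmyd5 and siPhf2 vehicle libraries, and at 378, 434 and 428 after KLA. Over the whole list 36 of 57 genes had their lowest vehicle level in the library named siPhf2. The same share over all genes was not computed. That library held 192423 reads outside Rn45s, against 1350846 and 910902 in the siCtl and siSmyd5 vehicle libraries. The part of read number was not tested. The other genes of the list did not have their lowest level there. Ifit1 stood at 20, 8.78 and 57.2 reads per 1000000 in the siCtl, siSmyd5 and siPhf2 vehicle libraries, and Rsad2 at 52.6, 70.3 and 120.

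Among the factors upstream and downstream of interferon, 5 of 14 IRF and STAT genes were called higher and none lower (median log2 ratio 0.76). The shares of all genes were 6.92% and 2.4%. Under the exchange of names 8 of the 14 were higher, beside 8.48% of all genes. Irf1 had 43 and 588 reads (14.8-fold, 10.8 to 20.7), Stat5a 20 and 239 (12.9-fold, 8.18 to 21.5) and Stat2 88 and 291. Irf3, the factor that TRIF activates by phosphorylation, had 92 and 52 reads and was not called, nor was the macrophage factor Irf8 (135 and 102).

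Immediate early factors showed rises and falls side by side at 4 h, with 8 of 22 genes called higher and 2 lower. Egr1 had 45 and 307 reads (7.38-fold, 5.38 to 10.3), Junb 151 and 552 (3.95-fold, 3.3 to 4.77) and Maff 2 and 47. Fos and Jun, the classic AP-1 pair, were the 2 that fell, Fos from 74 to 16 reads (0.234, 0.127 to 0.405) and Jun from 236 to 71 (0.325, 0.246 to 0.426). Both were also called lower in the siSmyd5 pair (23 and 7 reads, and 111 and 35). Atf3 was level at 352 and 361 reads (1.11, 0.955 to 1.29).

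Effector enzymes and secreted proteins had 18 of 34 genes called higher and 1 lower (median log2 ratio 1.16, and 2.27 under the exchange of names). Irg1 (now Acod1), which makes the metabolite itaconate, had 29 and 3205 reads (120-fold, 83.1 to 179). Nos2, the inducible nitric oxide synthase, had 0 and 230 reads, 82.9-fold higher against a floor of 3 vehicle reads (exact lower limit 66.9). Slc7a2, an arginine transporter gene, had 35 and 585 (18.1-fold, 12.8 to 26.2). Arg1, which competes for arginine in alternatively activated macrophages, had 111 and 87 reads (0.848, 0.633 to 1.13). Ptgs2 and Ptges, successive enzymes of prostaglandin E2 synthesis, had 124 and 2061 reads (18-fold, 15 to 21.7) and 10 and 115 reads. Edn1, the peptide endothelin-1, had 1 and 219, and Ch25h, a cholesterol hydroxylase of antiviral defence, had 21 and 119. On the surface that starts clotting, F3 (tissue factor) rose from 13 to 47 reads and Thbd (thrombomodulin, its counterweight) was the member called lower, from 52 to 9 (0.187, 0.0811 to 0.383). C3, Saa3 and Lcn2, well known acute-phase genes, were not called, with 1227 and 1227, 477 and 539, and 37 and 33 reads.

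Surface and inflammasome genes rose selectively. Of 21 costimulation and adhesion genes, 10 were called higher, beside 6.92% of all genes. Among the 10, Icam1 had 114 and 1155 reads (11-fold, 9.03 to 13.4) and Cd83 16 and 255. Vcam1 had 67 and 393 and Cd274 (PD-L1) 172 and 687 (4.32-fold, 3.65 to 5.14). Of the B7 pair, Cd80 was called (17 and 41 reads) and Cd86 was not (31 and 58). In the inflammasome and cell death list 7 of 27 were called higher, beside 6.92% of all genes. Nlrp3, a sensor that needs priming, had 30 and 1486 reads (53.6-fold, 37.4 to 79.7), and Casp4 (caspase-11, the cytosolic sensor of lipid A) had 68 and 414. The adaptor Pycard (76 and 59) and Casp1 (251 and 352) were not called. In antigen presentation 3 of 23 were called higher, H2-Q6, Psme2 and Nlrc5, beside 6.92% of all genes. The abundant B2m (4539 and 4056) and class II gene H2-Ab1 (95 and 74) were not called. This list depends on the library names. Under their exchange 11 of 23 were called higher, beside 8.48% of all genes, and the median log2 ratio was 1.53 in place of 0.25. B2m was among the 11 (143 and 197 reads, log2 ratio 1.29).

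**Figure D3:**
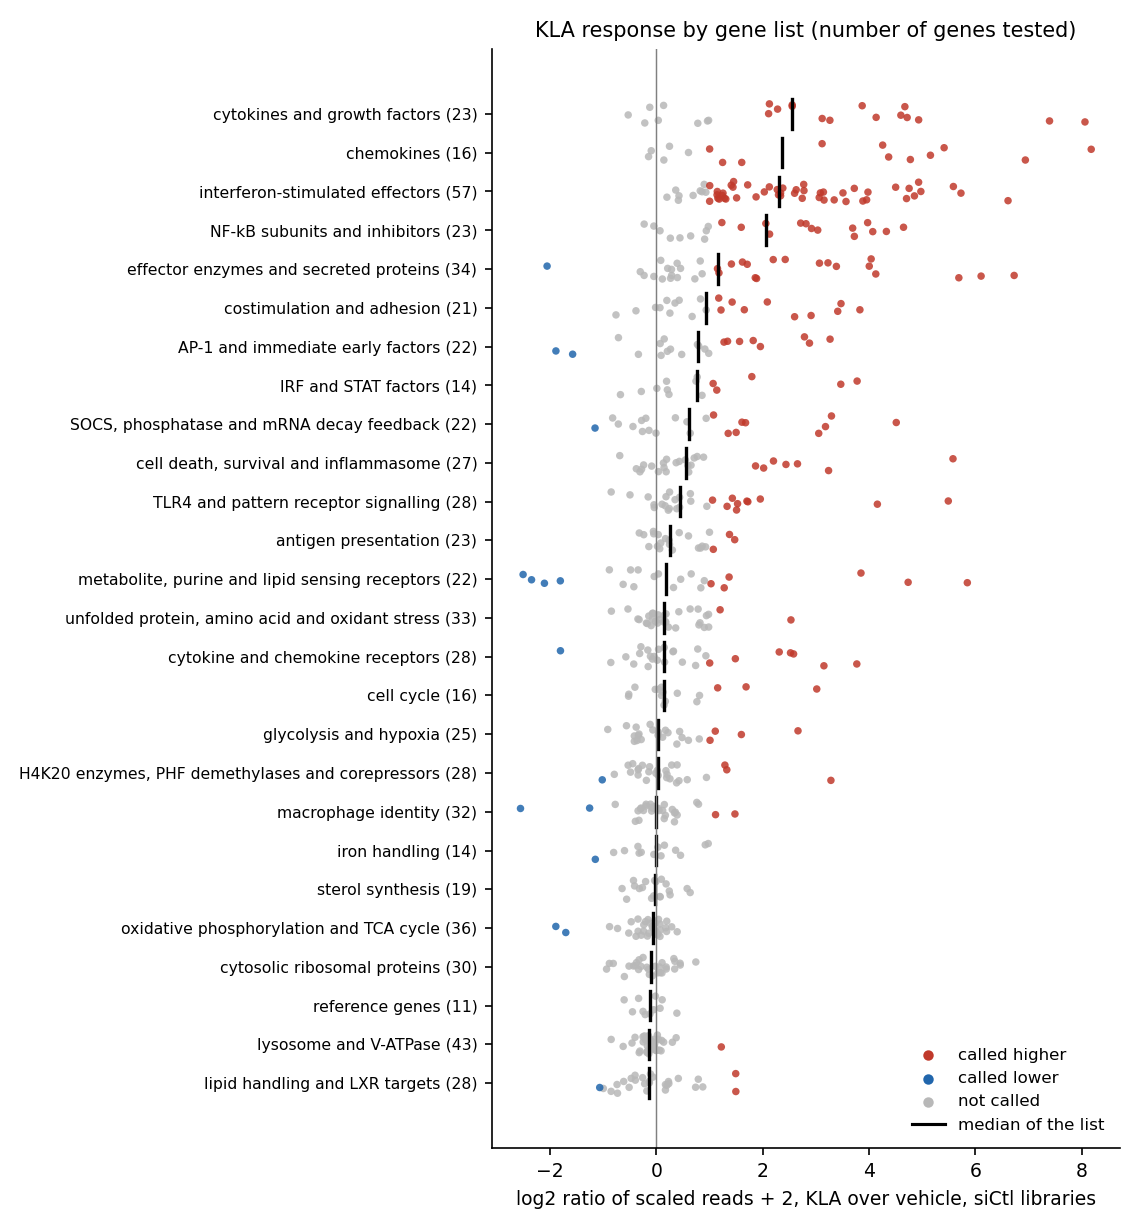
Log2 ratio (x axis, scaled reads + 2, KLA over vehicle, siCtl libraries) of each tested gene in 26 gene lists (y axis, number tested in brackets), with red for called higher, blue for called lower, grey for not called and a black bar at the list's median. Cytokines, chemokines, interferon-stimulated effectors and NF-kB genes have medians of 2.56, 2.36, 2.3 and 2.06, and lysosomal, ribosomal and sterol genes -0.13, -0.1 and -0.03.

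Receptors for metabolites, purines and lipids divided, with 6 of 22 called higher and 4 lower, beside 6.92% and 2.4% of all genes. Under the exchange of names 6 were higher and 1 lower, beside 8.48% and 6.63% of all genes. Of the falls named below, Gpr183, Lpar6 and Gpr157 were not called there. Niacr1, the receptor for niacin and ketone bodies, had 1 and 245 reads (interval 47.1 to 10509), and the adenosine receptor genes Adora2a and Adora2b, which restrain macrophages, had 5 and 210 and 5 and 112. Falls were found in S1pr2, a sphingosine phosphate receptor (289 and 74 reads, 0.277, 0.212 to 0.359), in Gpr183, the receptor for the oxysterol made from the product of Ch25h (40 and 6), in Lpar6 (59 and 8) and in the orphan receptor gene Gpr157 (54 and 6).

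Lysosomal, ribosomal, sterol and oxidative genes had few calls. Of 43 lysosomal genes 1 was called, Ctsc, with 385 and 835 reads. The 43 genes summed to 108370 reads in vehicle and 92581 in KLA. Per 1000000 reads other than Rn45s that was 80220 and 65240, a scaling without TMM. With TMM, as used for the calls, their median log2 ratio was -0.13. Under the exchange of names 6 of the 43 were called lower, beside 6.63% of all genes. None of the 30 listed and tested cytosolic ribosomal protein genes was called (lowest log2 ratio -0.94), nor any of 19 sterol synthesis genes. Rps3a, a ribosomal protein gene outside the ribosomal list, was called lower in the siCtl pair, as given below. Of 36 genes of oxidative phosphorylation and the TCA cycle 2 were lower, beside 2.4% of all genes: Ppargc1a (47 and 11 reads) and Ndufs3 (46 and 9). In the siSmyd5 pair Ppargc1a was again lower (55 and 12) and Ndufs3 was not called (33 and 20). Of 25 glycolysis and hypoxia genes 4 were higher, beside 6.92% of all genes: Slc2a6 (37 and 235 reads), Ndrg1, Hk2 (144 and 291) and Hif1a (373 and 698), while the main glucose transporter gene Slc2a1 had 296 and 372. In the lipid list 2 of 28 were higher and 1 lower, beside 6.92% and 2.4% of all genes. Under the exchange 1 was higher and 7 were lower, beside 8.48% and 6.63% of all genes. Abca1, which exports cholesterol, rose (367 and 963 reads), Pparg, a lipid-activated nuclear receptor, fell (219 and 95), and Abcg1 was not called (582 and 268). The number called lower in the lipid list depends on the scaling. It was 2 with DESeq2 size factors or TMM over the 2 siCtl libraries, and 3 with scaling to the library total. The iron exporter gene Slc40a1 fell from 38 to 14 reads. Ftl1, the light ferritin chain, was not called, at 10212 and 5410 reads (0.573, 0.554 to 0.592).

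Of 32 macrophage identity genes 2 were called higher and 2 lower, beside 6.92% and 2.4% of all genes, and the median log2 ratio was -0.01. Sfpi1 (PU.1, the defining factor of the lineage) had 434 and 416 reads (1.04, 0.904 to 1.19), and Lyz2 had 2566 and 2670. Cebpa, a myeloid factor gene, fell from 304 to 45 reads (0.16, 0.114 to 0.22). Cebpb, the partner linked to activation, had 293 and 472 reads and was not called. The rises were Tfec and Mitf, relatives in 1 family of factors. Of 16 cell cycle genes 3 rose, beside 6.92% of all genes. Among the 3 were Mki67 (45 and 361 reads, 8.68-fold, 6.35 to 12.1) and the cell cycle inhibitor gene Cdkn1a (72 and 222). The tested Mcm genes, which encode the replicative helicase, were not called.

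For the chromatin genes the series is about, 3 of 28 were called higher and 1 lower, beside 6.92% and 2.4% of all genes. Kdm6b, a histone H3 lysine 27 demethylase known to be induced by TLR4, had 57 and 543 reads (10.3-fold, 7.83 to 13.8). Jhdm1d (47 and 114 reads), a relative of Phf2, and Setdb2 (35 and 84) also rose, and Phf20 fell (76 and 33). Smyd5, the H4 lysine 20 methyltransferase, had 44 and 29 reads (0.713, 0.43 to 1.17), and Phf2, the demethylase, had 113 and 120 (1.15, 0.881 to 1.5), so neither was called. The corepressor genes Ncor1 (480 and 441 reads) and Hdac3 (95 and 69) were not called.

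The 15 largest falls had log2 ratios between 2.06 and 3.82 in size, and 5 of the 15 belonged to a list. Fbxo32, a ubiquitin ligase gene best known from muscle wasting, led with 322 and 18 reads (0.0605, 0.0354 to 0.0971), and 281 and 25 in the siSmyd5 pair. Next came Vash2 (101 and 11), Cebpa, Eepd1 (110 and 15), Gpr157, Sh2d3c (262 and 41) and Rhov (93 and 13), then Lpar6, Lrrc14b, Fam83f, Klhl6, Gne, Gpr183, the myeloid receptor gene Cd300lb (151 and 31) and Thbd. In the siSmyd5 pair 14 of the 15 were again called lower, the exception being Gpr183 (14 and 6 reads). Under the exchange of names 8 were, and all 15 kept their sign. The 15 largest rises were called higher in both. All 15 were in a list, but the lists were chosen with earlier results of these data known. Of all 553 genes called higher, 365 were in none.

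Across all genes the siSmyd5 pair gave 694 genes higher (8.68%) and 278 lower (3.48%). Of the siCtl rises 471 were shared, 85.2% of the siCtl set and 67.9% of the siSmyd5 set. Of the falls 91 were shared, 47.4% of the siCtl set and 32.7% of the other. No gene was called in opposite directions, and 546 of 553 rises and 181 of 192 falls had the same sign. Sharing followed depth: with a mean of at least 50 reads 294 of 319 rises and 37 of 50 falls were shared, and below it 177 of 234 and 54 of 142. All 46 rises with a log2 ratio of at least 4 were shared. Pearson's r between the log2 ratios of the 2 pairs, over 7995 genes that are not independent, was 0.843. Genes that met the call in 1 pair and reversed their sign in the other included Kremen1 (22 and 45 reads, then 15 and 9) and Hes6 (28 and 7, then 11 and 12). Rps3a (205 and 89, then 94 and 110) was another, with more reads, and belongs to a family with near-identical copies. The siSmyd5 calls that reversed in the siCtl pair were not counted, nor was the depth of reversed genes summarised.

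**Figure D4:**
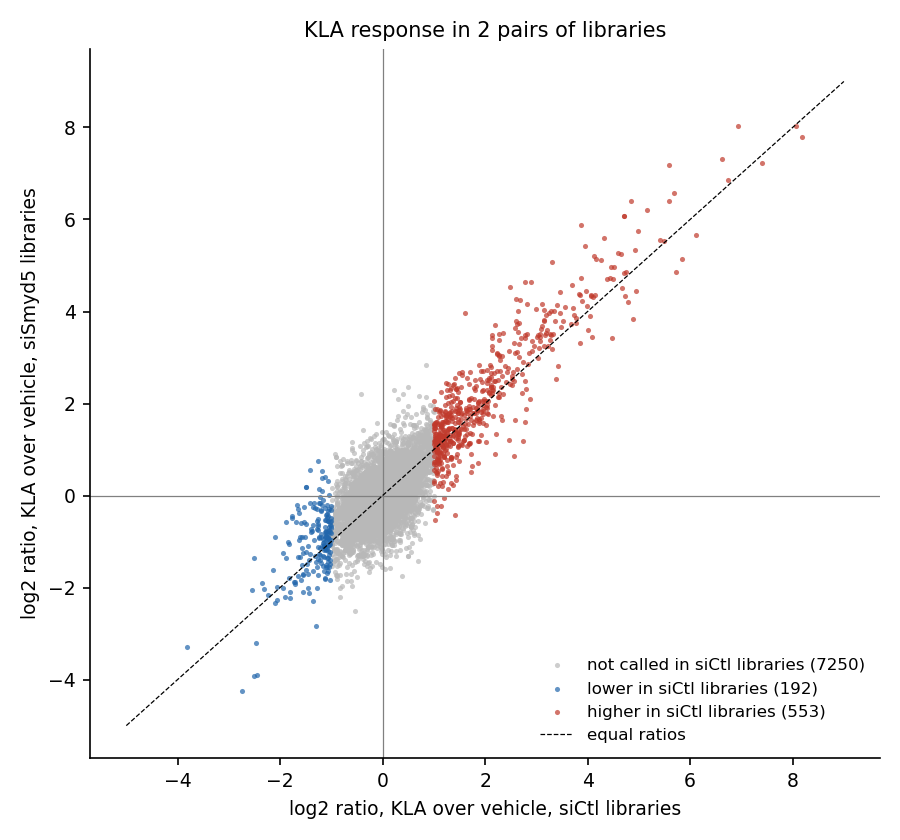
Log2 ratio of KLA over vehicle for 7995 genes in the siCtl pair (x axis) and in the siSmyd5 pair (y axis), coloured by the call in the siCtl pair, with a dashed line at equal ratios. The 553 red points lie above 0 on the y axis except 7, and the blue points scatter more widely, 181 of 192 keeping their sign.

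If the columns named siPhf2 were the control pair, 678 genes would be higher (8.48%) and 530 lower (6.63%). Of the siCtl rises 324 (58.6%) and of the falls 59 (30.7%) would be shared, with no opposite call, and 44 of the 46 largest rises would be among them. Single genes do depend on the name. Il23a would have 1 and 0 reads, Ccl7 2 and 1, and Il6 0 and 2, against 83, 362 and 168 reads in the KLA library named siCtl. Those libraries held 192423 and 119137 reads outside Rn45s.

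Calls were more frequent among genes of low level before KLA. In the lowest quintile of vehicle reads per kilobase 16.5% of genes were called higher, and 3% in the highest. Both the vehicle level and the minimum on the mean, which counts KLA reads, favour rises among low genes here. The 8025 genes with at least 10 reads in the siSmyd5 vehicle library, which is outside the contrast, were therefore placed by that library's level, and 8.97% of the lowest and 2.8% of the highest quintile were called higher, and 4.86% and 1.81% lower. Median vehicle reads were 37 and 229, and the part of read number was not tested. Transcript length moved with the response too. Among the shortest quintile 4.38% were called higher and among the longest 9.51%, with median log2 ratios of -0.07 and 0.15 (-0.12 and 0.14 in the siSmyd5 pair), and median vehicle reads of 54 and 105. The part of read number in this was not tested.

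Genes called higher lay beside each other in 17 runs of 3 or more neighbouring tested genes, 62 genes in all, and genes called lower in 1 run of 3. Coordinates are those of the table, on mm9. The longest run was the Ifi200 cluster on chromosome 1 (175560990 to 175961886), with 7 genes from Pyhin1 to Ifi205 and log2 ratios from 1 to 5.73. The Slfn genes on chromosome 11 formed runs of 5 and 4, the first including Lig3 and Rffl. The Ifit genes on chromosome 19 (34625184 to 34724499) formed a run of 5, and Gbp5, Gbp7, Gbp3 and Gbp2 on chromosome 3 (142159898 to 142300972) a run of 4. Cxcl3, Cxcl1 and Cxcl2 lay together on chromosome 5 (91215129 to 91334964) with log2 ratios of 3.12 to 8.18, and Parp14, Dtx3l and Parp9 on chromosome 16. Several of these runs are families of near-identical copies, where reads could be shared. Others are not, such as Pik3cg, 2010109K11Rik, Nampt and Gdap10 on chromosome 12.

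Promoter windows were found in RefSeq for 6437 of the tested genes (80.5%), among them 440 of those called higher and 155 of those called lower. The NF-kB motif was in 4.51% of all 32851 windows of that length, in 4.87% of the windows of genes not called and in 11.6% (9.11% to 14.5%, exact binomial interval) of the 577 windows of genes called higher. At a log2 ratio of at least 2 the share was 19%. The interferon element was in 3.44% of all windows, 2.88% of those not called, 8.84% of those called higher and 14.6% at a log2 ratio of at least 2. The AP-1 motif TGANTCA was in 7.81%, 5.05%, 10.9% and 11.7%. Of 207 windows of genes called lower, 5 held the NF-kB motif (2.42%, 0.789% to 5.55%), 1 the interferon element (0.483%, 0.0122% to 2.66%) and 5 the AP-1 motif (2.42%, 0.789% to 5.55%), and the NF-kB and AP-1 intervals include the shares of genes not called. TATAAA was in 13.6% of all windows, 6.54% of those not called, 11.4% of those called higher and 8.7% of those called lower. Each motif was searched on both strands, a window counted once however many matches overlapped, and windows of 1 gene are not independent.

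The motif that was found differed by list. In windows of NF-kB subunit and inhibitor genes 12 of 28 held the NF-kB motif and 0 the interferon element, and in those of interferon-stimulated effectors 5 of 55 and 26 of 55. Among chemokines 5 of 10 held the NF-kB motif. Lists with few calls held them too: the NF-kB motif was in 6 of 39 windows of lysosomal genes (15.4%, 5.86% to 30.5%) and the interferon element in 3 of 23 of ribosomal protein genes (13%, 2.78% to 33.6%). Read the other way, 59 of 384 genes with the NF-kB motif alone were called higher (15.4%), 42 of 233 with the interferon element alone (18%), 4 of 21 with both (19%) and 335 of 5799 with neither (5.78%). Most called genes therefore had neither motif in the window, and most genes with a motif were not called.

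**Figure D5:**
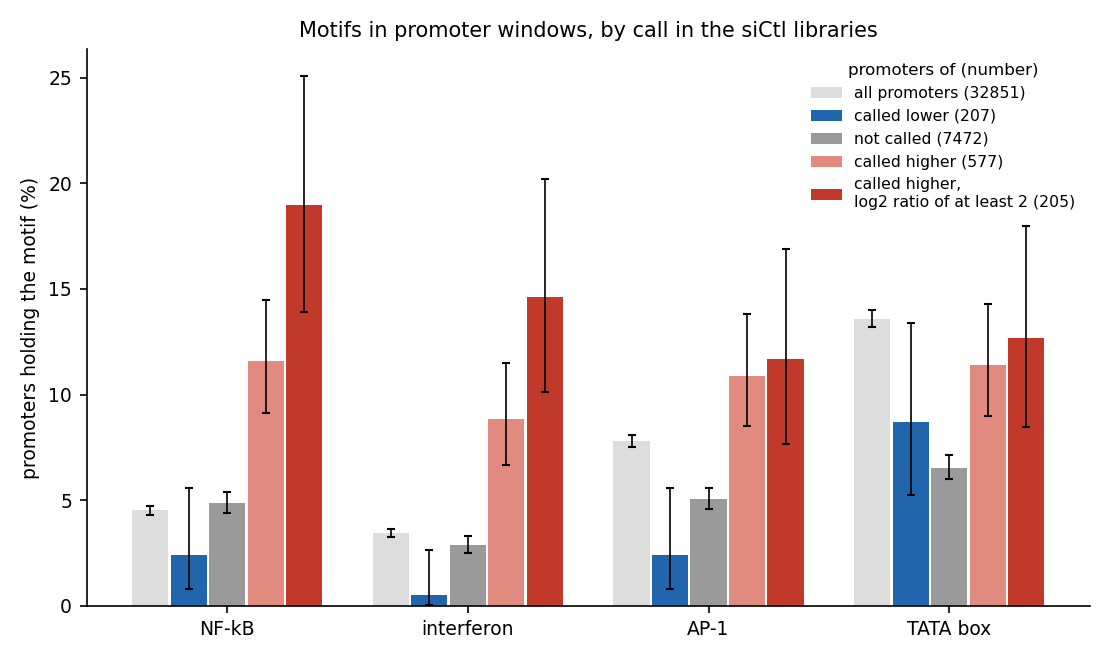
Percent of promoter windows (y axis, from 0) that hold the NF-kB, interferon, AP-1 and TATA box motifs (x axis), for all windows and for genes called lower, not called, called higher and called higher with a log2 ratio of at least 2 in the siCtl pair; bars are shares and lines exact 95% binomial intervals, and the number of windows is in the key. The NF-kB and interferon shares go from 4.87% and 2.88% (not called) to 19% and 14.6% (largest rises).

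The 8 macrophage markers summed to 9156 reads in vehicle and 8967 in KLA, with none called. T, B and NK cell, neutrophil and eosinophil markers summed to 35 reads or fewer per type in either library, and erythroid markers to 0. Mast cell markers summed to 45 and 65 (1.56-fold, 1.05 to 2.34), of which Kit had 6 and 23 and the other 5 markers 39 and 42. In the siSmyd5 pair they summed to 24 and 25. Of 4 dendritic cell markers 3 were at 0 in both libraries, and Zbtb46 had 1 and 20 reads. Mesothelial and stromal markers summed to 2025 and 1922 (1.03-fold, 0.964 to 1.09), nearly all from Col1a1, Col1a2, Col3a1 and Dcn, genes typical of matrix-producing cells, and their part in the response was not tested.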

How the data were processed

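Poly(A) RNA was fragmented, tailed, reverse transcribed with barcoded primers, circularized, amplified and sequenced, per the labels' protocols. No molecular identifiers are described, so intervals cover counting error only. The deposited values are a signal, reads per RefSeq transcript scaled to 10000000 tags, per the file headers. HOMER and mm9 are named per the submitters' processing notes; no label or header gives the aligner, the use of strand or the treatment of multiply matching reads, so overlapping and antisense genes cannot be told apart. The headers refer to cds, while the listed lengths and coordinates cover whole transcripts.

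Whole reads were recovered by dividing each value by the worth of 1 read (whole within 0.02): 100% of values came out whole with a header total, the totals of siCtl and siPhf2 being crossed. Of 29619 rows, 2 without a symbol (at most 2 reads) were left out. Sizes came from TMM in edgeR 4.0.16 (R 4.3.3), with DESeq2 1.42.0 size factors as an alternative. Fold intervals are exact conditional Poisson intervals at 95%, computed with scipy 1.17.1 in Python 3.11.15, and calling was tested on simulated data. A count test was not run, since each group has 1 library. Genes were named by rule: the 15 largest rises and falls, the most abundant genes, up to 6 called members of each of 26 lists, uncalled members by value, Smyd5 and Phf2, and neighbouring runs. Exceptions outside this rule were chosen after their values were seen: Irf7 and Ccl5 per library, Kremen1, Hes6 and Rps3a, and the uncalled members picked for naming. The members and lists were chosen with earlier results of these data known. Promoter sequences are from RefSeq. A few list members are counted but not reported here by name.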

Additional observations from a re-analysis of the deposited data

How the results depend on the processing

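With 1 library per group no library could be left out. No paired analysis of the siCtl response alone was possible, because the labels give no replicate numbers and the siCtl pair has 1 library per agent. That leaves no residual degrees of freedom within this pair. The count of genes called higher (553) was 441 to 584 under the other scalings, 0.5 added reads and the longest transcript, 743 with no minimum, 282 with a minimum mean of 50 reads and 210 at a log2 ratio of at least 2. The count called lower (192) was less steady: 342 with scaling to the library total, 64 with the minimum of 50, 334 with none, 15 at a log2 ratio of at least 2, 530 with siCtl and siPhf2 names exchanged and 289 with scaling and minimum over the siCtl and siSmyd5 libraries, an alternative chosen after seeing the data that also gave 576 genes higher. Falls shared with the siSmyd5 pair numbered 146 with scaling to the total in place of 91. Cytokines called higher were 6 with the minimum of 50 and 24 with none in place of 15, feedback genes 4 with the minimum of 50 and 4 at a log2 ratio of at least 2 in place of 9, and effectors 11 at that ratio in place of 18. The minimum changes which genes enter, and the ratio of at least 2 is a stricter limit over the same 7995 genes. Medians moved with the minimum as well, for chemokines to 1.59 when it was set over the siCtl and siSmyd5 libraries. The promoter shares of genes called higher became 19% (NF-kB) and 14.6% (interferon) at a log2 ratio of at least 2. Under the exchange of names 4 called genes turned their sign: Ccl7 (log2 ratio -0.14), Il23a (-1.89), Jhdm1d (-0.95) and Lig3 (-3.56). The cause was not tested, and those genes had 2 and 1, 1 and 0, 21 and 6, and 4 and 0 reads there. No called gene among those tried singly turned its sign under another scaling, 0.5 added reads or the longest transcript, while some uncalled genes near equality did with scaling to the library total, such as Csf1r (0.15 to -0.04), Lyz2 (0.17 to -0.02) and Fth1 (0.03 to -0.16). Placing genes by the siSmyd5 vehicle library, also chosen after seeing the data, gave 266 higher calls in the lowest quintile in place of 264, and 144 when genes needed at least 10 reads in that library. Depth limits single calls: genes called lower had a median of 58 vehicle reads and 19 KLA reads, against 46 and 168 for genes called higher.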

Other observations

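Of the 553 genes called higher, 365 belong to none of the 26 lists, and of the 192 called lower 176 do not. The 10 largest rises outside the lists, a rule added after the data were seen, were Marcksl1, Gm12250, Olr1, Rab11fip1, Pde4b, Rnd1, Gpr85, Ralgds, I830012O16Rik and Trex1, and all 10 were also called higher in the siSmyd5 pair and under the exchange of names. Olr1, the scavenger receptor for oxidised LDL, had 8 and 238 reads (32.2-fold, 16.1 to 75.4). Pde4b, a phosphodiesterase that degrades cyclic AMP, had 17 and 409 reads (26-fold, 16.1 to 45.1). Trex1, a nuclease that clears cytosolic DNA, had 37 and 541 reads (15.8-fold, 11.3 to 22.7). Ralgds, an exchange factor for Ral GTPases, had 36 and 609 (18.3-fold, 13.1 to 26.4), and Rab11fip1, an effector of recycling endosomes, had 35 and 780. I830012O16Rik lies in the run of Ifit genes and had 0 and 46 reads, 16.6-fold higher against a floor of 3 vehicle reads (exact lower limit 13). As a near-identical copy of its neighbours it is uncertain.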
